A study of Mus musculus with 48 samples.

Results

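The transcripts of *Maf* and of 5 C/EBP family genes, *Cebpa*, *Cebpb*, *Cebpd*, *Cebpe*, and *Cebpg*, were followed from splenic monocytes to red pulp macrophages (RPMs). These 6 genes were taken by name from the 54735 genes counted in every RNA-seq library. Libraries were made from cells sorted from spleens of male Balb/c mice, 10 weeks old, of Wild Type (WT) genotype or labelled IL1RL1-/-, with 4 mice per genotype. IL1RL1 is the receptor of the cytokine IL-33. From each mouse, 3 populations were sorted among cells low for Ly6G. In its flow cytometry, the paper counted these populations among cells that were also low for CD11c, NK1.1, and side scatter. Monocytes were CD11bhi F4/80-, pre-RPMs were CD11bhi F4/80lo, and RPMs were CD11blo/- F4/80hi, giving 6 groups of 4 libraries. The labels give no treatment, and the 24 chromatin accessibility samples of the series were not analysed here.

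C/EBP factors are basic leucine zipper proteins that bind DNA as pairs, either with themselves or with each other. C/EBPα drives the commitment of progenitors to the myeloid lineage, C/EBPβ is needed for the survival of Ly6Clo monocytes and for emergency granulopoiesis, C/EBPδ acts with C/EBPβ in the inflammatory response, C/EBPε drives the late steps of granulocyte maturation, and C/EBPγ lacks the usual activation domain and forms pairs with the other members and with ATF4. c-Maf, the product of *Maf*, is a large Maf factor of the same leucine zipper class. In macrophages, it restrains self-renewal and turns on genes of the resident macrophage state.

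Libraries held from 3562367 to 6559454 counts, and values are given in CPM, counts relative to library size, scaled by the trimmed mean of M values (TMM). At this depth, 3 counts amounted to between 0.457 and 0.842 CPM per library before this scaling. *Il1rl1*, the targeted gene, was measured first. In monocytes it lay between 1.95 and 4.28 CPM in WT mice and between 12.6 and 15.4 CPM in mice labelled IL1RL1-/-, and in pre-RPMs between 3.19 and 5.71 CPM against between 11.8 and 12.9 CPM. In RPMs it lay between 1.06 and 3.00 CPM in WT mice and between 0.224 and 1.28 CPM in mice labelled IL1RL1-/-. The counts thus went against the genotype labels in monocytes and pre-RPMs, counts per gene do not show which exons were read, and all directions between genotypes below follow the labels. Markers also differed among the monocyte libraries. Summed over 6 NK cell genes (*Ncr1*, *Klrb1c*, *Klrk1*, *Prf1*, *Gzma*, *Eomes*), these libraries held between 509.5 and 1846 CPM, against between 14.0 and 152 CPM in the pre-RPM and RPM libraries, and none of the 6 genes was at 0 in a whole group. In 4 of the 8 monocyte libraries, those of mice 1 and 2 of each genotype, this sum was above that of 7 monocyte genes (*Ly6c2*, *Ccr2*, *Cx3cr1*, *Itgam*, *Csf1r*, *F13a1*, *S100a4*). The sum of 4 plasma cell genes was above the monocyte sum in the same libraries. The sum of 10 neutrophil genes was above it in every monocyte library except that of WT mouse 4 (820 against 1105 CPM). In mouse 3, these 2 sums were 2101 against 1484 CPM in WT and 1888 against 1575 CPM in the library labelled IL1RL1-/-. The sum of the 7 monocyte genes was not highest in monocyte libraries. It lay between 454 and 1575 CPM there, between 1440 and 1948 CPM in pre-RPM libraries, and between 1346 and 1743 CPM in RPM libraries. In RPMs, *Csf1r* alone averaged 1461 CPM in WT mice and 1615 CPM in mice labelled IL1RL1-/-. The other 6 genes were lower in RPMs than in pre-RPMs in both genotypes. RPM libraries matched their label, since each of 8 RPM genes, *Spic*, *Vcam1*, and *Hmox1* among them, was higher than in pre-RPMs in both genotypes.

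The member genes lie on 5 mouse chromosomes of the GRCm38 build. *Maf* (ENSMUSG00000055435) spans chr8:115682942-115707794 on the minus strand, with 8241 exonic bases. The intronless *Cebpa* (ENSMUSG00000034957, chr7:35119293-35121928, plus strand) and *Cebpg* (ENSMUSG00000056216, chr7:35046422-35056573, minus strand) lie on the same chromosome and point away from each other. *Cebpb* (ENSMUSG00000056501, chr2:167688915-167690418) and *Cebpd* (ENSMUSG00000071637, chr16:15887286-15891031) each consist of 1 exon on the plus strand, and *Cebpe* (ENSMUSG00000052435, chr14:54710360-54712174) lies on the minus strand. *Cebpb* shares 312 exonic bases with *Tmem189* and *Cebpd* shares 562 with *Spidr*, in both cases on the opposite strand, and counting was strand-specific. *Cebpg* shares 73 exonic bases on its own strand with *Gm44836*, which had between 1 and 15 counts per library.

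RefSeq promoter sequences (GRCm38.p6) matched 3 of the 6 genes, *Cebpa*, *Cebpb*, and *Cebpg*, which fell together from pre-RPMs to RPMs in WT mice (below). The 250 bases before the start of each are shown because they carry different core promoter letters. Capitals mark matches, on either strand, to TATAAA (the core of the TATA box), to CCAAT (a box bound by NF-Y), to TTGCNNAA (a C/EBP site), to TGACG (an arm of the cyclic AMP response element), and to TGCTGA (the core of a Maf half-site).
*Cebpa* (chr7:35119043-35119292, plus strand): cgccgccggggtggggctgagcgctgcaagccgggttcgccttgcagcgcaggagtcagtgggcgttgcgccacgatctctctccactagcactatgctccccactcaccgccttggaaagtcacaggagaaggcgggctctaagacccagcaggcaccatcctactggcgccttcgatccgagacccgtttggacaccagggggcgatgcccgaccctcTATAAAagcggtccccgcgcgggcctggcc
*Cebpb* (chr2:167688665-167688914, plus strand): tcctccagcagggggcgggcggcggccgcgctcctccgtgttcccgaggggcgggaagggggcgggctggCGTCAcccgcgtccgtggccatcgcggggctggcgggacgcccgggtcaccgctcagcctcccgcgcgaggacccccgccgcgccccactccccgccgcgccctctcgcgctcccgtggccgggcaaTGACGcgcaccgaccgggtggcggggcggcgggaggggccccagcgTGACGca
*Cebpg* (chr7:35056567-35056816, minus strand): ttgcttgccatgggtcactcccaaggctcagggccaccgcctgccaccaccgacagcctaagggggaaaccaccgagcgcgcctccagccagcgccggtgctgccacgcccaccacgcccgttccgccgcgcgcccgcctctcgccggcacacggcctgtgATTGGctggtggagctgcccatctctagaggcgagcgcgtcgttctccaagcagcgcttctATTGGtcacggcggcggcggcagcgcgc
The *Cebpa* promoter held TATAAA 30 bases before the start, letters found in 12.4% of all 32851 promoter windows of this length. The *Cebpb* promoter held TGACG 3 times, once on the minus strand 180 bases before the start and on the plus strand at 53 and 7 bases, and 17.8% of all windows held at least 1 match. The *Cebpg* promoter held CCAAT on the minus strand at 89 and 28 bases before the start, against 33.8% of windows with any match. None of the 3 windows held the letters TTGCNNAA or TGCTGA, which were found in 9.56% and 16.1% of all windows. Sites that depart from these letters were not searched for, so that C/EBP or Maf sites of other letters may be present. The 3 windows were rich in G and C, at 66.4%, 81.6%, and 70.8% in this order, against a median of 52.4% over all windows.

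*Maf* was low in monocytes and pre-RPMs and high in RPMs of both genotypes. In WT mice 1 to 4, it was measured at 10.1, 12.8, 19.7, and 19.2 CPM in monocytes, at 23.3, 23.1, 42.9, and 32.1 CPM in pre-RPMs, and at 390, 372, 405, and 397 CPM in RPMs. In mice 1 to 4 labelled IL1RL1-/-, it was measured at 10.6, 12.6, 12.3, and 15.8 CPM in monocytes, at 22.2, 18.8, 24.4, and 27.6 CPM in pre-RPMs, and at 437, 391, 391, and 384 CPM in RPMs. Every RPM library lay far above every other library, and within each genotype the 3 cell types did not overlap. The WT pre-RPM library of mouse 3, the highest of its group for *Maf*, also held the highest sums of 8 RPM markers (286 CPM, against between 112 and 164 CPM in the other WT pre-RPM libraries) and of erythroid markers (614 CPM), and the part of other cells in this value was not tested. In bulk libraries, more cells of a type and more RNA per cell cannot be told apart.

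**Figure D1:**
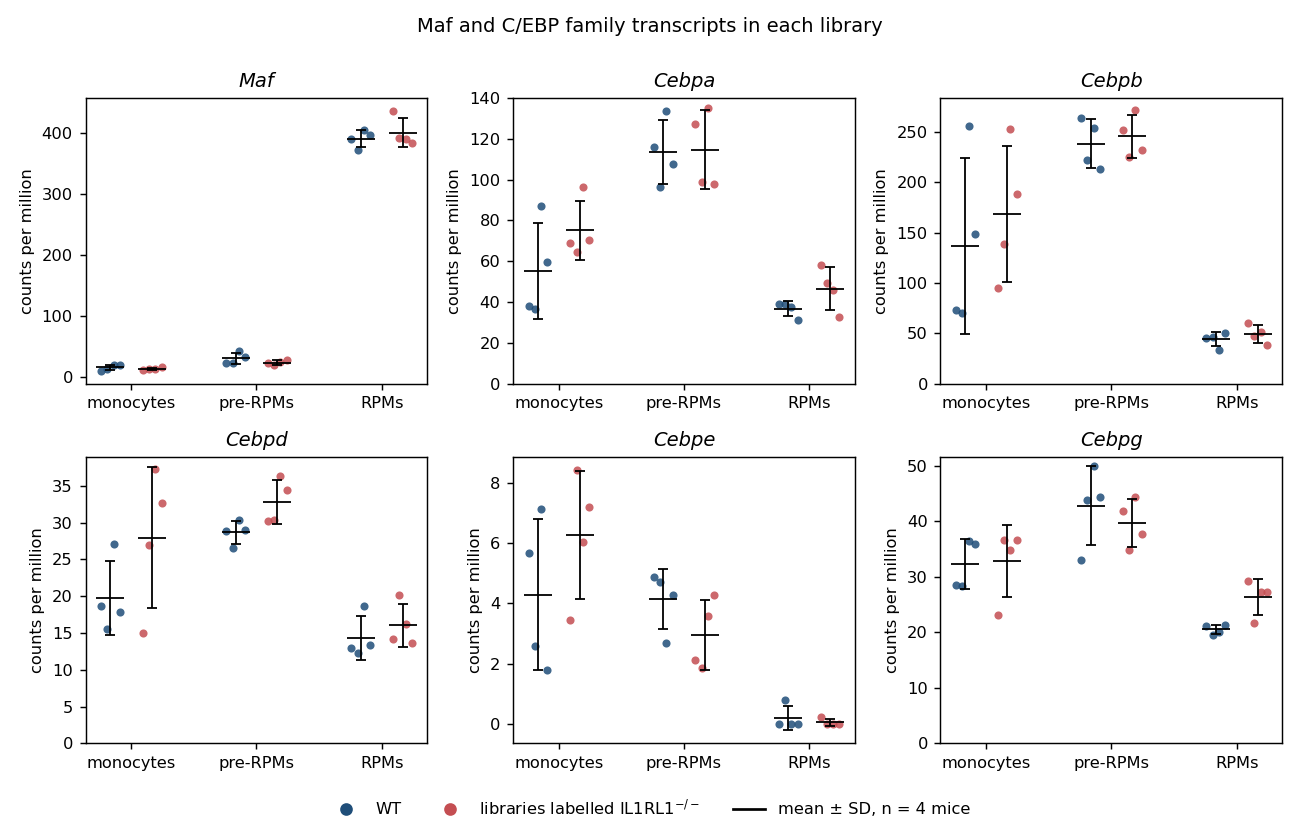
CPM of each member in every library, by cell type (x axis) and genotype (colour), with each panel on its own linear y axis from 0. Points are single mice, and bars are mean ± SD (n = 4). *Maf* stands near 400 CPM in RPMs and under 45 CPM elsewhere, and the 5 C/EBP genes have their lowest means in RPMs.

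From pre-RPMs to RPMs, *Maf* rose 12.48-fold in WT mice (log2 fold change 3.64 ± 0.19 SE, n = 4 against 4, adjusted p = 1.36e-09, edgeR quasi-likelihood test with Benjamini-Hochberg adjustment) and 16.6-fold in mice labelled IL1RL1-/- (4.05 ± 0.12 SE, adjusted p = 7.08e-13). For cell types, the threshold of a call was set at an adjusted p of 0.01 together with a log2 fold change beyond 1 in either direction. By this rule 14.0% of all tested genes rose in this step in WT mice and 14.5% in mice labelled IL1RL1-/-. *Maf* ranked 200 by p among 11239 genes in WT mice and 94 among 11437 genes in mice labelled IL1RL1-/-. Over the whole way from monocytes it rose 24.97-fold in WT mice (4.64 ± 0.22 SE, adjusted p = 5.81e-08) and 31.2-fold in mice labelled IL1RL1-/- (4.96 ± 0.15 SE, adjusted p = 3.16e-10), where 13.4% and 14.3% of genes rose. Without the 2 monocyte libraries per genotype in which NK markers exceeded monocyte markers, these values were 4.31 and 4.79 on the log2 scale. Markers of some other cells moved in the same direction as *Maf*. All 6 erythroid genes, 4 globin genes among them, rose from pre-RPMs to RPMs in both genotypes, with sums from 7.33 to 614 CPM in pre-RPM libraries and from 813 to 23580 CPM in RPM libraries. Of 6 T cell genes, 3 were tested, of which 3 rose in WT mice (*Cd3e*, *Cd3g*, and *Cd4*) and 1 in mice labelled IL1RL1-/- (*Cd4*), with sums from 6.86 to 17.2 CPM in pre-RPM libraries and from 39.8 to 82.6 CPM in RPM libraries. The sum of 6 eosinophil genes lay between 51.4 and 129 CPM in pre-RPM libraries and between 274 and 398 CPM in RPM libraries. Of these genes *Ccr3* rose in both genotypes, whereas *Alox15* fell in both and *Siglecf* fell in mice labelled IL1RL1-/-. A marker that passed the filter on low counts only through RPMs had to rise, so that the numbers of markers that rose carry no weight of their own. The part of these other cells in the changes of this step was not tested.

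The first step, from monocytes to pre-RPMs, was smaller. *Maf* had a log2 difference of 0.98 ± 0.25 SE (adjusted p = 0.0277, edgeR) in WT mice and of 0.85 ± 0.16 SE (adjusted p = 0.0044) in mice labelled IL1RL1-/-, and neither passed both thresholds. In this step 0.316% of genes rose and 3.25% fell in WT mice, and 0.974% rose and 3.88% fell in mice labelled IL1RL1-/-.

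*Mafa* and *Nrl* encode large Maf factors known from other tissues. *Mafa*, known from pancreatic beta cells, averaged at most 4.62 CPM in any group, and *Nrl*, a photoreceptor factor, averaged at most 0.579 CPM.

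Small Maf proteins lack an activation domain and pair with NFE2, NRF, and BACH factors. Of the small Maf genes *Maff*, *Mafg*, and *Mafk*, 2 were tested and neither passed both thresholds from pre-RPMs to RPMs in either genotype (*Mafg* 0.42 and 0.36, *Mafk* -0.13 and -0.56 on the log2 scale in WT mice and mice labelled IL1RL1-/-), although the WT RPM libraries lay above the WT pre-RPM libraries for *Mafg* without overlap. Of their 6 listed partners, 5 were tested. *Bach1*, the heme-regulated repressor, fell by 2.503 ± 0.11 SE and 2.36 ± 0.09 SE on the log2 scale, and *Nfe2*, known from the erythroid and megakaryocyte lineages, fell by 2.81 and 2.38. *Nfe2l1*, which encodes NRF1, rose by 1.38 and 1.12. *Nfe2l2*, which encodes NRF2, and *Bach2* did not pass. The median log2 fold change of these 5 genes was -0.50 in WT mice and -0.52 in mice labelled IL1RL1-/-, against a median of 0.00 to 2 decimals over all genes tested in each.

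Of 9 macrophage genes linked to large Maf factors, 6 were tested from pre-RPMs to RPMs and all 6 rose in both genotypes. Of all genes, 14.0% rose in WT mice and 14.5% in mice labelled IL1RL1-/-. The 6 genes had a median log2 fold change of 5.94 in WT mice and 7.49 in mice labelled IL1RL1-/-. They were the complement genes *C1qa*, *C1qb*, and *C1qc*, the scavenger receptor *Cd163*, the mannose receptor *Mrc1*, and *Timd4*, a receptor for phosphatidylserine on dying cells. *Mrc1* went from 19.4 ± 10.4 to 1038 ± 179 CPM in WT mice and from 17.9 ± 2.83 to 1148 ± 133 CPM in mice labelled IL1RL1-/- (SD, n = 4). *Lyve1* and *Folr2*, found on other resident macrophages, averaged at most 0.213 and 0.737 CPM, and *Il10* at most 0.244 CPM, all too low to be tested. A gene that passed the filter on low counts only through the group in which it is high had to differ, so that the number tested carries no weight of its own.

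*Cebpb* was the most abundant C/EBP transcript per kilobase of exon in all 24 libraries, and it fell the most among the members tested from pre-RPMs to RPMs. In WT mice 1 to 4, it was measured at 72.8, 70.3, 256, and 149 CPM in monocytes, at 264, 222, 254, and 213 CPM in pre-RPMs, and at 45.8, 46.4, 33.9, and 50.8 CPM in RPMs. In mice 1 to 4 labelled IL1RL1-/-, it was measured at 95.3, 138, 252, and 188 CPM in monocytes, at 252, 225, 272, and 232 CPM in pre-RPMs, and at 60.5, 47.7, 51.5, and 38.8 CPM in RPMs. Pre-RPMs were uniformly high and RPMs uniformly low, whereas the monocyte libraries ran from above the RPM range up to the pre-RPM range. From pre-RPMs to RPMs, *Cebpb* fell by 2.47 ± 0.14 SE on the log2 scale in WT mice (adjusted p = 3.94e-09, edgeR) and by 2.36 ± 0.13 SE in mice labelled IL1RL1-/- (adjusted p = 3.66e-10), where 10.7% and 11.5% of genes fell.

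From monocytes to RPMs, 10.5% of genes fell in WT mice and 11.6% in mice labelled IL1RL1-/-. *Cebpb* fell by 1.65 ± 0.38 SE (adjusted p = 0.00428, edgeR) and by 1.76 ± 0.26 SE (adjusted p = 1.13e-04). The WT value lost its call when the monocyte library of mouse 4 (adjusted p = 0.0118) or any 1 of the 4 RPM libraries (adjusted p from 0.0118 to 0.0161) was left out, while its log2 value stayed between -1.53 and -1.70 in these 5 fits. In the first step, *Cebpb* did not pass in WT mice (0.80 ± 0.35 SE, adjusted p = 0.138) or in mice labelled IL1RL1-/- (0.55 ± 0.23 SE, adjusted p = 0.125).

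*Cebpa* had the same order of cell types, with smaller differences than *Cebpb* in the steps that end in RPMs. In WT mice 1 to 4, it was measured at 37.9, 36.6, 87.2, and 59.5 CPM in monocytes, at 116, 96.6, 134, and 108 CPM in pre-RPMs, and at 39.2, 39.3, 37.7, and 31.2 CPM in RPMs. In mice 1 to 4 labelled IL1RL1-/-, it was measured at 69.2, 64.3, 96.7, and 70.5 CPM in monocytes, at 127, 98.9, 135, and 97.7 CPM in pre-RPMs, and at 58.1, 49.4, 46.0, and 32.6 CPM in RPMs. Pre-RPMs lay above monocytes without overlap in each genotype, and WT monocytes overlapped WT RPMs. From pre-RPMs to RPMs, *Cebpa* fell by 1.67 ± 0.13 SE on the log2 scale in WT mice (adjusted p = 6.93e-08, edgeR) and by 1.35 ± 0.16 SE in mice labelled IL1RL1-/- (adjusted p = 2.44e-06).

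From monocytes to pre-RPMs, *Cebpa* was higher by 1.04 ± 0.25 SE on the log2 scale in WT mice, with an adjusted p of 0.0198 that missed the threshold of 0.01 (edgeR). It was called in this comparison when the mouse was taken as a block (1.11, adjusted p = 0.00361), a fit that called 504 genes over all against 396 without the block. It was also called by DESeq2 (1.05, adjusted p = 0.00186), which called 660 genes over all against 396 by edgeR. In mice labelled IL1RL1-/-, the value was 0.61 ± 0.15 SE (adjusted p = 0.0174) and was not called. Over the whole way from monocytes to RPMs, *Cebpa* did not pass in either genotype (-0.60 ± 0.26 SE, adjusted p = 0.0782, and -0.69 ± 0.18 SE, adjusted p = 0.00721).

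Among the 8 monocyte libraries, *Cebpb* followed the order of the summed monocyte markers, except in the top pair. The 2 libraries with the lowest monocyte sums (WT mice 2 and 1, at 454 and 647 CPM) had the lowest *Cebpb*, and the 2 with the highest (mouse 3 of each genotype, at 1484 and 1575 CPM) had the highest. NK markers ran the opposite way, from 1846 CPM in WT mouse 2 down to 509.5 CPM in mouse 3 labelled IL1RL1-/-. Without mice 1 and 2 of each genotype in the monocyte groups, a set chosen after the values were seen, the log2 step from monocytes to pre-RPMs was 0.24 for *Cebpb* and 0.64 for *Cebpa* in WT mice, and 0.15 and 0.44 in mice labelled IL1RL1-/-. From monocytes to RPMs it was -2.21 for *Cebpb* and -1.005 for *Cebpa* in WT mice, where *Cebpa* was then called (adjusted p = 5.93e-04, edgeR), and -2.19 and -0.89 in mice labelled IL1RL1-/-. The monocyte libraries kept in these fits still held neutrophil marker sums from 820 CPM (WT mouse 4) to 2101 CPM (WT mouse 3). The part of other cell types in these steps was not tested.

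**Figure D2:**
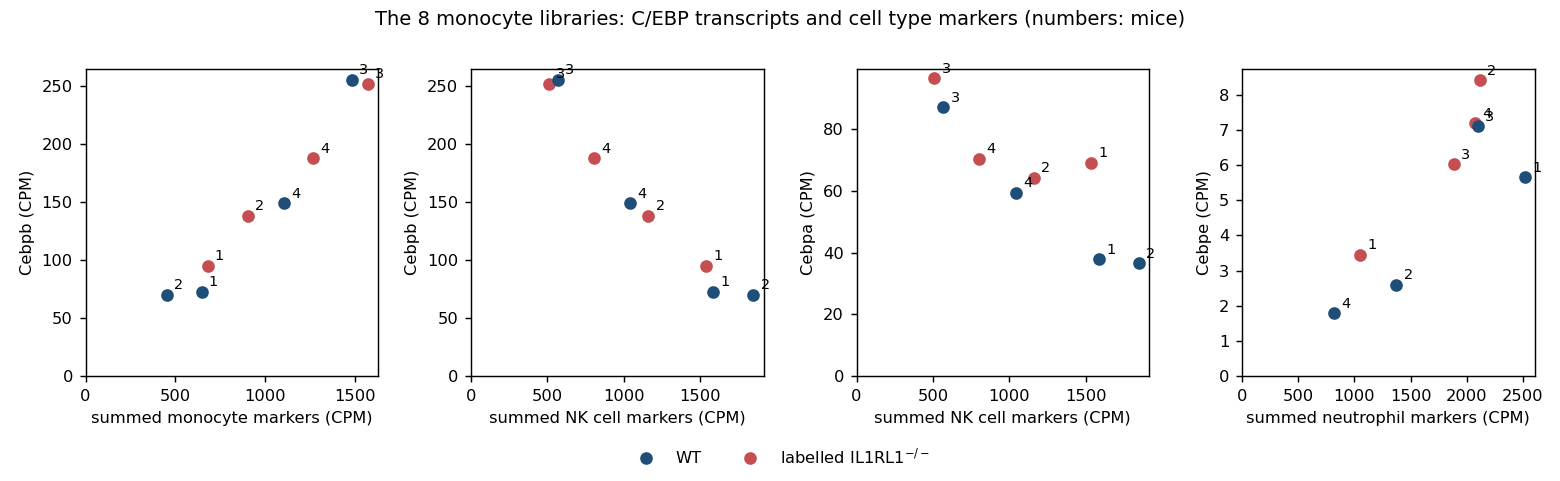
The 8 monocyte libraries, with CPM of *Cebpb*, *Cebpa*, or *Cebpe* (y axis) against the summed CPM of monocyte, NK cell, or neutrophil markers (x axis). Each point is 1 mouse, numbered, and colour gives the genotype. *Cebpb* is highest in the libraries of mouse 3 of each genotype, which have the highest monocyte sums, and *Cebpe* is lowest in the 3 libraries with neutrophil sums of 1374 CPM or less.

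*Cebpd* and *Cebpg* were less abundant per kilobase of exon than *Cebpb* and *Cebpa* and differed less between pre-RPMs and RPMs. In WT mice 1 to 4, *Cebpd* was measured at 18.7, 15.6, 27.1, and 17.8 CPM in monocytes, at 28.8, 26.5, 30.4, and 29.0 CPM in pre-RPMs, and at 12.9, 12.2, 18.7, and 13.4 CPM in RPMs. In mice 1 to 4 labelled IL1RL1-/-, it was measured at 15.0, 26.9, 37.2, and 32.7 CPM in monocytes, at 30.3, 30.4, 36.3, and 34.5 CPM in pre-RPMs, and at 14.1, 20.1, 16.2, and 13.6 CPM in RPMs. Pre-RPMs and RPMs did not overlap in either genotype, and monocytes overlapped both. *Cebpd* fell by 1.06 ± 0.15 SE on the log2 scale from pre-RPMs to RPMs in WT mice (adjusted p = 2.84e-05, edgeR) and by 1.07 ± 0.13 SE in mice labelled IL1RL1-/- (adjusted p = 5.65e-06). Both values were close to the fold threshold, and the calls were lost at -0.99 without the WT RPM library of mouse 2 and at -0.9996 without the RPM library of mouse 4 labelled IL1RL1-/-.

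Between monocytes and pre-RPMs, *Cebpd* did not pass (0.54 ± 0.17 SE, adjusted p = 0.0487, edgeR, in WT mice and 0.23 ± 0.21 SE, adjusted p = 0.52, in mice labelled IL1RL1-/-). From monocytes to RPMs, it did not pass either (-0.49 ± 0.20 SE, adjusted p = 0.0725, and -0.80 ± 0.24 SE, adjusted p = 0.0163), although the latter was called at -1.16 without the monocyte libraries rich in NK markers (adjusted p = 1.53e-04).

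In WT mice 1 to 4, *Cebpg* was measured at 28.4, 28.4, 36.5, and 35.8 CPM in monocytes, at 33.0, 43.8, 49.97, and 44.2 CPM in pre-RPMs, and at 21.2, 19.6, 20.03, and 21.2 CPM in RPMs. In mice 1 to 4 labelled IL1RL1-/-, it was measured at 23.1, 36.6, 34.9, and 36.6 CPM in monocytes, at 41.8, 34.8, 44.3, and 37.6 CPM in pre-RPMs, and at 29.1, 21.6, 27.2, and 27.3 CPM in RPMs. Pre-RPMs lay above RPMs without overlap in each genotype, and the WT RPM libraries were tightly grouped. *Cebpg* fell by 1.10 ± 0.13 SE on the log2 scale from pre-RPMs to RPMs in WT mice (adjusted p = 7.29e-06, edgeR). In mice labelled IL1RL1-/-, the difference was -0.65 ± 0.12 SE (adjusted p = 2.39e-04), under the fold threshold. Between monocytes and pre-RPMs it did not pass (0.40 ± 0.15 SE, adjusted p = 0.0934 in WT mice, and 0.27 ± 0.15 SE, adjusted p = 0.243 in mice labelled IL1RL1-/-), nor from monocytes to RPMs in WT mice (-0.67 ± 0.13 SE, adjusted p = 0.00143, under the fold threshold) or in mice labelled IL1RL1-/- (-0.32 ± 0.16 SE, adjusted p = 0.116).

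*Cebpe* was low in monocytes and pre-RPMs and close to absent from RPMs. In WT mice 1 to 4, it had 37, 13, 31, and 12 counts in monocytes, 21, 18, 11, and 18 in pre-RPMs, and 0, 4, 0, and 0 in RPMs. In mice 1 to 4 labelled IL1RL1-/-, it had 14, 40, 28, and 35 counts in monocytes, 9, 11, 12, and 23 in pre-RPMs, and 1, 0, 0, and 0 in RPMs. Every monocyte and pre-RPM library thus exceeded every RPM library, of which 6 of 8 had no count. Relative to library size, the summed counts were 18.4 times as high in WT pre-RPMs as in WT RPMs (95% exact interval 6.85 to 69.3, for counting error only). The same ratio was 57.9 (9.96 to 2326) in mice labelled IL1RL1-/-, where it rests on 1 count in RPMs.

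*Cebpe* did not pass the filter on low counts from pre-RPMs to RPMs in either genotype or from monocytes to RPMs in WT mice. It was called lower from monocytes to RPMs in mice labelled IL1RL1-/- (adjusted p = 4.28e-06, edgeR), with a count ratio of 127 (22.3 to 5043). It passed the filter there only through the monocytes, in which it is high, so that it had to differ and the call carries no weight of its own. From monocytes to pre-RPMs, it had a log2 difference of -0.02 ± 0.41 SE (adjusted p = 0.977) in WT mice and -1.10 ± 0.33 SE (adjusted p = 0.0419) in mice labelled IL1RL1-/-. Neutrophil markers were lowest in RPMs too. The sum of 10 genes, *S100a8*, *S100a9*, *Camp*, and *Ltf* among them, lay between 820 and 2519 CPM in monocyte libraries, between 294 and 561 CPM in pre-RPM libraries, and between 40.1 and 59.3 CPM in RPM libraries, and *Ly6g* was at 0 in all RPM libraries labelled IL1RL1-/-. All gates took cells low for Ly6G, and the part of neutrophils in the *Cebpe* values was not tested.

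**Figure D3:**
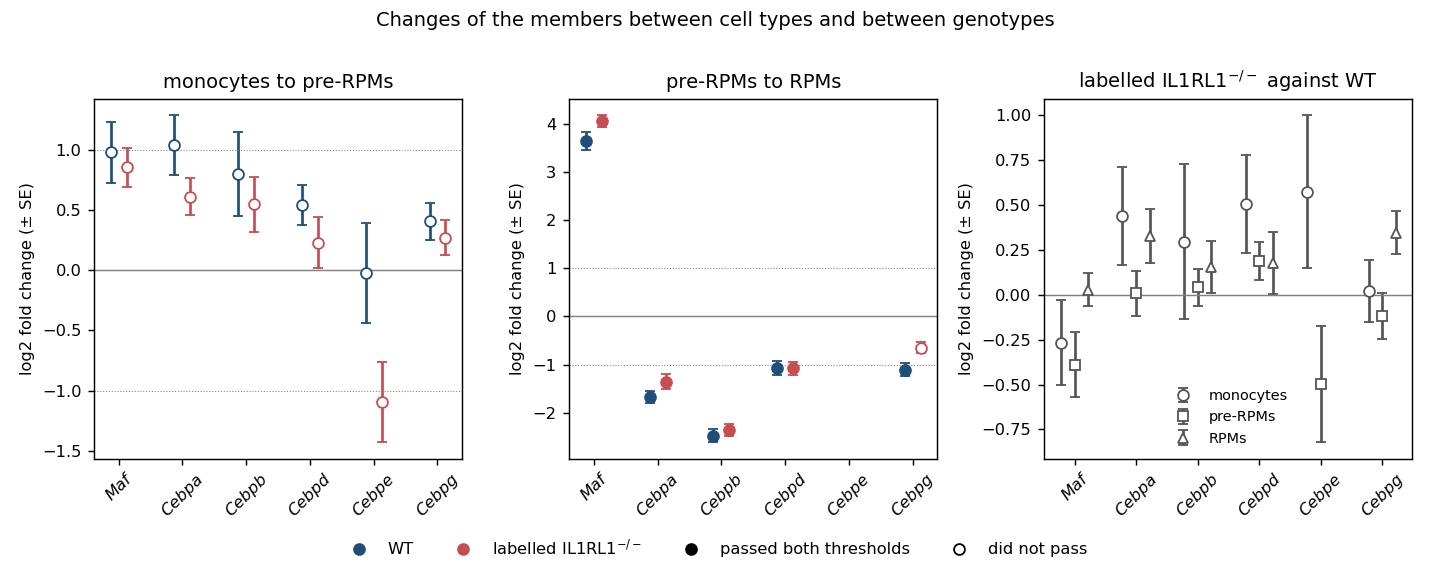
Log2 fold changes ± SE (y axis) of each member (x axis) from monocytes to pre-RPMs, from pre-RPMs to RPMs, and between genotypes within each cell type, with n = 4 libraries per group. Filled symbols passed both thresholds, and dotted lines mark the fold threshold. All 5 tested members passed from pre-RPMs to RPMs in WT mice, 4 of 5 in mice labelled IL1RL1-/-, and none between genotypes. Over all genes, 2776 of 11239 and 2973 of 11437 passed in this step, and at most 0.552% between genotypes in any cell type.

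Counted over the members, 5 of the 5 tested were called from pre-RPMs to RPMs in WT mice, *Maf* upward and *Cebpa*, *Cebpb*, *Cebpd*, and *Cebpg* downward, and 4 of 5 in mice labelled IL1RL1-/-. Over all genes tested, 14.0% were called upward and 10.7% downward in WT mice, and 14.5% and 11.5% in mice labelled IL1RL1-/-. From monocytes to RPMs, 2 of 5 were called in WT mice, where 13.4% of genes rose and 10.5% fell, and 3 of 6 in mice labelled IL1RL1-/-, where 14.3% rose and 11.6% fell. 1 of these 3 was *Cebpe*, whose call the filter had fixed. From monocytes to pre-RPMs, edgeR called 0 of 6 in either genotype and DESeq2 called 1 and 0. Of all genes, edgeR called 0.316% upward and 3.25% downward in WT mice, and 0.974% and 3.88% in mice labelled IL1RL1-/-. DESeq2 called 660 of 11091 genes in WT mice and 665 of 11196 in mice labelled IL1RL1-/-, against 396 and 543 by edgeR. At an unadjusted p under 0.05 (edgeR) there were 5 and 4 members in this step, beside 3540 of 11091 and 3425 of 11196 genes tested. Without the WT monocyte library of mouse 3, which had the highest monocyte marker sum of its group, 3 members passed in WT mice, *Maf* (1.11), *Cebpa* (1.35), and *Cebpb* (1.29). That fit called 1041 of 11424 genes over all, against 396 of 11091 with no library left out.

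Levels were compared between members per kilobase of exon. In WT pre-RPMs, *Cebpb* averaged 158 CPM per kb, *Cebpa* 43.1, *Cebpd* 7.66, *Cebpg* 7.61, *Maf* 3.68, and *Cebpe* 3.34. In WT RPMs, *Maf* came first at 47.4 CPM per kb, ahead of *Cebpb* at 29.4, *Cebpa* at 14.0, *Cebpd* at 3.82, *Cebpg* at 3.65, and *Cebpe* at 0.164. Over the 8 RPM libraries, *Maf* ran from 45.1 to 53.0 CPM per kb and *Cebpb* from 22.6 to 40.3, without overlap. *Maf* thus stood below *Cebpb* in pre-RPMs and above it in RPMs in both genotypes. The 5 C/EBP genes together went from 220 ± 20.5 CPM per kb in WT pre-RPMs to 51.0 ± 3.75 in WT RPMs, and from 225 ± 22.4 to 59.7 ± 10.2 in mice labelled IL1RL1-/- (SD, n = 4).

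The make-up of this C/EBP pool also differed. *Cebpb* contributed 71.9 ± 1.76% of it in WT pre-RPMs and 57.4 ± 5.80% in WT RPMs, and 72.6 ± 1.03% and 55.3 ± 1.47% in mice labelled IL1RL1-/- (SD, n = 4). The share of *Cebpa* went from 19.6 ± 1.48% to 27.5 ± 3.81% in WT mice and from 19.3 ± 1.48% to 29.4 ± 2.23% in mice labelled IL1RL1-/-. The ranges of pre-RPMs and RPMs did not overlap for either gene in either genotype. A share depends on all 5 genes, and the rise in the share of *Cebpa* stands beside the fall in its own level.

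**Figure D4:**
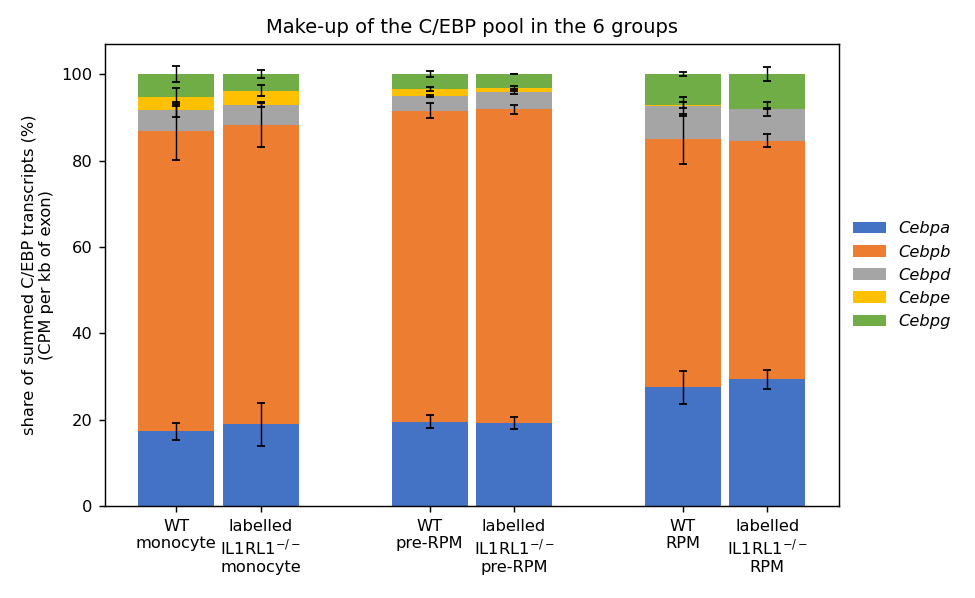
Mean share of each C/EBP gene (stacked colours, y axis in percent) in the summed C/EBP transcripts, in CPM per kb of exon, for the 6 groups (x axis). Error bars are the SD of each segment over 4 mice, drawn at its upper edge. The *Cebpb* segment takes 72% to 73% of the pool in pre-RPMs and 55% to 57% in RPMs.

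Across the 6 groups ordered by mean level, the neighbouring groups that did not overlap were few. For *Maf*, the RPM groups (401 ± 24.3 and 391 ± 14.2 CPM) overlapped each other and stood apart from WT pre-RPMs (30.3 ± 9.36), after which every neighbour overlapped the next. For *Cebpb* and *Cebpe*, the gap lay above the RPM groups. For *Cebpg*, neighbours overlapped except RPMs labelled IL1RL1-/- (26.3 ± 3.27 CPM) and WT RPMs (20.5 ± 0.846 CPM). For *Cebpa* and *Cebpd*, each group overlapped the next in order. Such gaps were not counted over all genes.

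Genotypes were compared within each cell type at an adjusted p under 0.05. This called 0.0614% of genes among monocytes, 0.552% among pre-RPMs, and 0.233% among RPMs, and no member in any of them by edgeR or by DESeq2. With the mouse number as a block, 27 and not 7 genes were called among monocytes, 145 and not 59 among pre-RPMs, and 81 and not 26 among RPMs, and again no member. At an unadjusted p under 0.05 (edgeR), there were 0, 1, and 1 members in monocytes, pre-RPMs, and RPMs, beside 410 of 11405, 941 of 10698, and 811 of 11150 genes tested. *Maf* did not pass the test in pre-RPMs labelled IL1RL1-/- (23.3 ± 3.68 against 30.3 ± 9.36 CPM, log2 difference -0.39, 95% interval -0.77 to -0.01, adjusted p = 0.562, edgeR), the groups overlapped, and the difference was -0.18 without the WT library of mouse 3. *Cebpg* did not pass it in RPMs labelled IL1RL1-/- (0.35, 95% interval 0.09 to 0.60, unadjusted p = 0.0124, adjusted p = 0.531), where all 4 libraries lay above the 4 WT libraries. How many of all genes stood apart in this way was not counted, so that this separation carries no weight of its own. In RPMs, the *Maf* difference was 0.03 with an interval from -0.17 to 0.23, and that of *Cebpb* in pre-RPMs was 0.04 with an interval from -0.17 to 0.25. In monocytes the intervals were wide, from -0.67 to 1.26 for *Cebpb* and from -0.17 to 1.05 for *Cebpa*.

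Whether a step between cell types differed between genotypes was tested directly, as the step in mice labelled IL1RL1-/- minus the step in WT mice. Over all genes, 0 of 11960 (0%) differed from monocytes to pre-RPMs, with 454 at an unadjusted p under 0.05 and 0 called by DESeq2, and 78 were called with no filter beyond 1 count. From pre-RPMs to RPMs 0.107% differed and from monocytes to RPMs 0.0318% (13 and 4 genes, or 36 and 21 with the mouse as a block), and no member was called in any of the 3 tests by edgeR or by DESeq2. The member nearest to the threshold was *Cebpg* from pre-RPMs to RPMs, with a difference of 0.47 ± 0.18 SE (95% interval 0.10 to 0.85, unadjusted p = 0.0154, adjusted p = 0.517, edgeR). For *Maf* in that step, the difference was 0.43 ± 0.22 SE (95% interval -0.03 to 0.88, adjusted p = 0.701). That *Cebpg* was called in WT mice and not in mice labelled IL1RL1-/- was therefore not shown to be a difference between them.

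The granule genes linked to C/EBP factors fell along the series of cell types. From monocytes to pre-RPMs, 4 of 8 tested genes fell in WT mice and 4 of 7 in mice labelled IL1RL1-/-, against 3.25% and 3.88% of all genes, in both cases *Camp*, *Ltf*, *Ngp*, and *Lcn2*, which encode proteins of the secondary granules of neutrophils. The fall of *Ltf*, which encodes lactoferrin, was 3.98 on the log2 scale in WT mice and 3.16 in mice labelled IL1RL1-/-, from 261 and 300 CPM in monocytes. From pre-RPMs to RPMs, 6 of 6 tested genes fell in both genotypes, where 10.7% of all genes fell in WT mice and 11.5% in mice labelled IL1RL1-/-. Their median log2 fold change was -3.57 in WT mice and -5.96 in mice labelled IL1RL1-/-. Their counts per RPM library were at most 19 (*Ngp*) in WT mice and 9 (*Ltf*) in mice labelled IL1RL1-/-. A gene that passed the filter on low counts only through pre-RPMs, in which it is high, had to fall. The number that fell in this step therefore carries no weight of its own. *Camp*, *Ltf*, *Ngp*, and *Mmp8* are also among the 10 neutrophil markers, whose sums are given above beside *Cebpe*.

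Receptor and inflammatory genes linked to C/EBP factors split in direction. From pre-RPMs to RPMs, 2 of 6 tested genes rose and 3 fell in both genotypes. Over all genes tested, 14.0% rose and 10.7% fell in WT mice, and 14.5% and 11.5% in mice labelled IL1RL1-/-. *Csf1r*, the receptor of the macrophage growth factors CSF1 and IL-34, rose by 1.71 in WT mice and 1.59 in mice labelled IL1RL1-/- on the log2 scale, and *Cd14*, a co-receptor for lipopolysaccharide, rose by 3.38 and 3.56. *Lyz2*, which encodes lysozyme, fell by 6.56 and 7.51, *Csf3r*, the receptor of G-CSF, fell by 1.58 and 1.64, and *Il6ra* fell by 1.07 and 1.203. *Il1b* did not pass, and *Il6*, *Ptgs2*, *Arg1*, and *Nos2* were too low to be tested. Of 6 C/EBP partners and regulators, 4 were tested in each genotype and none passed both thresholds in this step. *Atf4*, a partner of C/EBPγ, averaged between 23.6 and 32.2 CPM in all 6 groups, and *Trib1*, whose product promotes the degradation of C/EBPα, between 8.22 and 13.4 CPM.

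**Figure D5:**
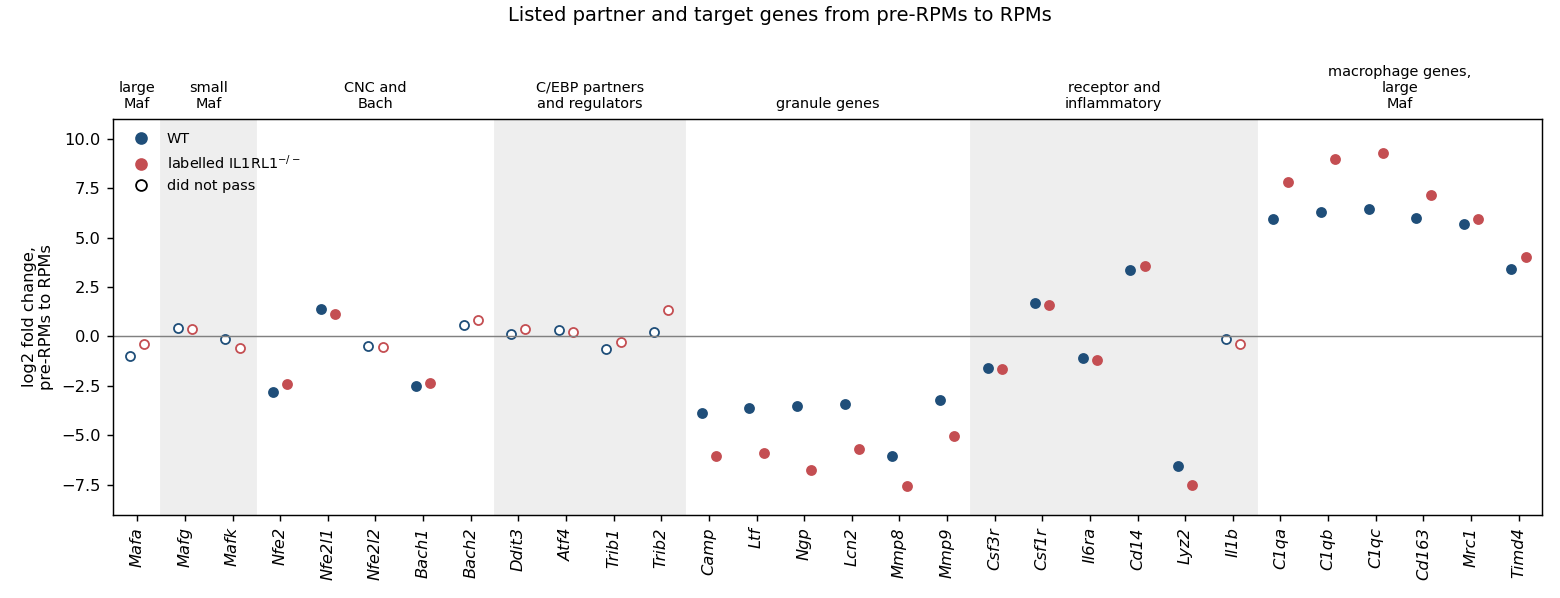
Log2 fold change from pre-RPMs to RPMs (y axis) of the tested partner and target genes (x axis), grouped by list, in WT mice and mice labelled IL1RL1-/-. Filled points passed both thresholds and open points did not. All 6 tested granule genes lie below 0 and all 6 tested macrophage genes linked to large Maf factors lie above 0. Genes that passed the filter on low counts only through the group in which they are high had to lie on that side.

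The genes most alike to each member were named by Pearson's r of log2 CPM over the 24 libraries, among 11658 expressed genes. These are descriptions, because the points share cell types and mice. For *Maf*, they were *Abcc3* (r = 0.997), which encodes an export pump of organic anions, *Fcna* (0.995), which encodes a ficolin, and *Hmox1* (0.994), which encodes the heme-degrading enzyme. For *Cebpb*, they were *Plxnd1* (0.983), *Nadk* (0.983), and *Rara* (0.983), the last of which encodes a retinoic acid receptor. For *Cebpe*, they were *Anxa1* (0.960), *Pglyrp1* (0.957), and *Padi4* (0.957), of which the latter 2 encode proteins of neutrophils. For *Cebpa*, they were *Mapkapk2* (0.954), *Mcub* (0.951), and *5031439G07Rik* (0.949), for *Cebpd* *Tmcc1* (0.929), *Zfyve9* (0.922), and *Tnfrsf1b* (0.921), and for *Cebpg* *Ifi27l2a* (0.915), *Arrdc4* (0.915), and *Use1* (0.914). Between members, r was highest for *Cebpa* and *Cebpb* (0.928) and lowest for *Cebpe* and *Maf* (-0.927).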

How the data were processed

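RNA was measured in 24 libraries, prepared with a stranded total RNA kit. Cutadapt (trimming), STAR 2.5.1 (alignment), and featureCounts 1.6.2 (reverse-stranded counting of read pairs over the exons of a gene name) were the tools of the authors. The deposited values are raw counts per gene. The file headers name the mouse annotation GRCm38, Ensembl release 95. The members and gene lists were chosen with earlier results of these data known.

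Counts were normalized by TMM and tested with the quasi-likelihood test of edgeR 4.0.16, on the libraries of each comparison, after its filter on low counts, with Benjamini-Hochberg adjustment over all genes tested. Cell types were compared at an adjusted p under 0.01 with a log2 fold change beyond 1, and genotypes and differences between steps at an adjusted p under 0.05. All members, *Il1rl1*, and the 3 genes most alike to each member are named, and any gene of the fixed lists could be named. 1 gene of the large Maf list was left out and is not reported here. A value per kilobase uses the exonic length in the files. Intervals of Cebpe ratios condition on the summed counts and cover counting error only. Scripts were tested on simulated data.

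No 2 libraries of a group agreed within sampling noise (lowest chi-square per degree of freedom 4.26 over 36 pairs), and the labels number the mice as separate animals. Within a genotype, same-numbered libraries of different cell types come from 1 mouse per the labels, and the mean correlation of their deviations over genes was between 0.079 and 0.25. Same-numbered mice of the 2 genotypes are different animals, but their libraries deviated together in every pair in monocytes (r from 0.144 to 0.508), RPMs (0.182 to 0.222), and pre-RPMs (0.052 to 0.204). The mean in pre-RPMs, 0.12, lay within the range of the means between cell types of 1 mouse. The block on the number was therefore fitted between genotypes in every cell type. Alternatives were DESeq2 1.42.0, RLE scaling, no filter beyond 1 count, 1 fit over all 24 libraries, a block on the mouse number, leaving out each library, removing *Gm42418* (24.4% to 38.8% of counts), and leaving out the monocyte libraries rich in NK markers. The last was chosen after seeing the data.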

Additional observations from a re-analysis of the deposited data

Results flagged for a closer look

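In 4 of the 36 sets of 4 libraries (6 members in 6 groups), 1 library stood apart from the other 3 by Dixon's test, and chance gives about 1 in 20 sets. That share does not apply to 2 of the 4, the *Cebpe* sets with 3 libraries at 0, in which any count stands apart. *Maf* was 437 CPM in the RPM library of mouse 1 labelled IL1RL1-/-, above the other 3 at between 384 and 391 CPM. *Cebpg* was 23.1 CPM in the monocyte library of mouse 1 labelled IL1RL1-/-, below the other 3 at between 34.9 and 36.6 CPM. *Cebpe* was 0.815 CPM (4 counts) in the WT RPM library of mouse 2 and 0.224 CPM (1 count) in the RPM library of mouse 1 labelled IL1RL1-/-, with 0 counts in the other RPM libraries of each genotype. The cause was not tested in any of them.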

How the results depend on the processing

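Over 12 comparisons, the number of members called moved by over 1.5 times in 5 of 79 refits other than leaving out 1 library. From monocytes to pre-RPMs in WT mice it was 1 and not 0 with DESeq2, with no filter beyond 1 count, with 1 fit over all 24 libraries, and with the replicate block, and in mice labelled IL1RL1-/- it was 1 with no filter beyond 1 count. Leaving out 1 library gave from 0 to 3 members in the WT comparison. In all other refits the count of called members stayed within 1.5 times. The block changed no other call of a member, although over all genes it called 27 and not 7 between genotypes in monocytes, 145 and not 59 in pre-RPMs, and 81 and not 26 in RPMs. Between genotypes, mice of the same number are different animals in every cell type. With no filter beyond 1 count, genotype calls over all genes were 139, 265, and 272, and genes called from monocytes to pre-RPMs 1094 in WT mice and 1060 in mice labelled IL1RL1-/-. With DESeq2, genes called were 660 and not 396 from monocytes to pre-RPMs in WT mice, and 23 and not 7 in monocytes and 48 and not 26 in RPMs between genotypes. With all 24 libraries in a single fit, the same WT step had 772, and genotype calls were 16 in monocytes and 17 and not 59 in pre-RPMs. Without the monocyte libraries rich in NK markers, the step had 239 in WT mice and 321 and not 543 in mice labelled IL1RL1-/-. Leaving out 1 library gave 169 to 1041 for the WT step, the most without the monocytes of mouse 3 and the fewest without the pre-RPMs of mouse 4, and 336 to 813 for the step in mice labelled IL1RL1-/-, the fewest without the monocytes of mouse 2. Genotype calls fell to 1 in monocytes without that same library and to 37 in pre-RPMs without the WT library of mouse 1. Genotype differences of the step from monocytes to pre-RPMs numbered 0, or 78 with no filter beyond 1 count. Those from pre-RPMs to RPMs numbered 13, or 43 with DESeq2, 224 with no filter beyond 1 count, 3 with all 24 libraries, and 36 with the block, and those from monocytes to RPMs 4, or 37, 165, and 21 with DESeq2, no filter, and the block, and 2 to 10 on leaving out 1 library, the most without the monocytes of mouse 4 labelled IL1RL1-/-. The filter beyond 1 count, when dropped, moved the median of all genes by at most 0.117 on the log2 scale.

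Directions turned only in values of members that were not called. With the replicate block, *Cebpe* was at 0.062 from monocytes to pre-RPMs in WT mice. Without the monocyte libraries rich in NK markers, *Cebpd* was at -0.10 from monocytes to pre-RPMs in mice labelled IL1RL1-/-, *Cebpg* at -0.016 between genotypes in monocytes, and the genotype difference of the step was 0.073 for *Maf* (monocytes to pre-RPMs) and 0.15 for *Cebpa* and 0.047 for *Cebpb* (monocytes to RPMs). *Cebpg* between genotypes in monocytes was at -0.0037 with no filter beyond 1 count. The genotype difference of *Cebpd* from pre-RPMs to RPMs was -0.014 with DESeq2, -0.016 with RLE scaling, -0.0058 with no filter beyond 1 count, -0.0093 with all 24 libraries, -0.0026 with the block, and -0.019 without *Gm42418*.

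Leaving out 1 library also turned 11 uncalled values: *Cebpe* from monocytes to pre-RPMs in WT mice (-0.30 to 0.30); between genotypes *Cebpg* in monocytes (-0.043 to 0.16), *Cebpa* (-0.078 to 0.093) and *Cebpb* (-0.012 to 0.091) in pre-RPMs, and *Maf* in RPMs (-0.0056 to 0.049); and as genotype differences of a step *Maf* from monocytes to pre-RPMs (-0.27 to 0.093), *Cebpd* (-0.13 to 0.15) and *Cebpe* (-2.68 to 1.98) from pre-RPMs to RPMs, and *Cebpa* (-0.41 to 0.052), *Cebpb* (-0.62 to 0.14), and *Cebpe* (-3.86 to 1.00) from monocytes to RPMs. The cause was not tested. Depth limits *Cebpe* most, with at most 4 counts per RPM library.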
